A study of Homo sapiens with 4 samples.

Results

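FTH1, the heavy chain of the iron store ferritin, was the member whose mRNA stood higher in both doxorubicin libraries than in both untreated libraries. Of all tested genes, 30.3% did the same. Its partner FTL, the iron importers and the iron sensors overlapped between the groups. With all 4 libraries, the edgeR test used here called neither FTH1 nor any other member at the thresholds of the study. It called no gene at all, whereas the paper reports differentially expressed mRNAs from edgeR at those thresholds, without naming the edgeR test. On simulated counts the test used here also missed genes given a log2 change of 2, so the lack of calls does not show unchanged members. The genes described here are 8 genes of cellular iron storage and uptake, taken by name from the gene list of the deposited counts: FTH1, FTL, TFRC, SLC11A2, STEAP3, ACO1, IREB2 and NCOA4. All 8 were found among the 59050 gene symbols listed, all 8 had counts in each of the 4 libraries, and all 8 were among the 17479 genes left for testing after a filter on low counts. The libraries were poly(A) RNA-seq of cells labelled HepG2, a cell line derived from a human liver tumour. The untreated group (0 h) held U1 and U2, replicates 1 and 2 of cells given no drug. The doxorubicin group held D1 and D2, replicates 1 and 2 of cells given 1 ug/ml of the DNA-damaging drug doxorubicin for 24 h, a treatment meant to raise p53. The same line, medium and RNA preparation were described for both groups, the series calls the libraries biological replicates, and no genetic change separated the groups. The groups differed in time (0 h and 24 h) as well as in the drug, and these cannot be told apart. The treatment tag of D1 and D2 names p53 and miRNA rather than the drug. The titles do not name the drug either and read nop53 for U1 and U2 and p53 for D1 and D2. The groups followed these titles together with the treatment protocol and the series text.

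Iron is needed for respiration and DNA synthesis, and free iron drives the formation of damaging radicals. Cells therefore take it up through the transferrin receptor, store the surplus inside ferritin shells built of heavy and light chains, and release it again when ferritin is delivered to lysosomes. The balance is set largely after transcription. The iron regulatory proteins, encoded by ACO1 and IREB2, bind hairpins called iron responsive elements when iron is low, which blocks translation from an element in the 5′ UTR and protects the message from decay through elements in the 3′ UTR. The counts described below measure mRNA, so translation of ferritin was not seen here.

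The elements are shown because they sit at opposite ends of the messages of the ferritin chains and of the transferrin receptor TFRC. Transcripts of protein-coding genes (GENCODE release 44, GRCh38) were searched on the sense strand for the loop CAGTGN, the last base not G, with 5 paired bases on either side (G-U pairs allowed) and a C just before the upper stem. Each line below gives 30 bases of the transcript, 5′ to 3′, with T for U, and the capitals mark the 6 bases of the loop.
FTH1, 5′ UTR, exon 1, chr11:61967573-61967602, minus strand: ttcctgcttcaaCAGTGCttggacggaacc
FTL, 5′ UTR, exon 1, chr19:48965335-48965364, plus strand: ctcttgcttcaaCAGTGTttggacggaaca
TFRC, 3′ UTR, exon 19, chr3:196050978-196051007, minus strand: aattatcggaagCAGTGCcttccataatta
TFRC, 3′ UTR, exon 19, chr3:196050574-196050603, minus strand: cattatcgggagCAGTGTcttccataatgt
TFRC, 3′ UTR, exon 19, chr3:196050509-196050538, minus strand: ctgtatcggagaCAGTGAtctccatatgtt
TFRC, 3′ UTR, exon 19, chr3:196050462-196050491, minus strand: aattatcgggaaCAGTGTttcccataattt
The ferritin elements lay 154 bases (FTH1) and 150 bases (FTL) before the coding sequence, and those of TFRC lay between 943 and 1459 bases after it. This pattern was found in 226 of 19676 genes (1.15%), in the 5′ UTR in 0.147% and in the 3′ UTR in 0.574% of genes. The loop bases CAGTG alone occurred in transcripts of 95.2% of genes. No match was found in NCOA4, STEAP3, SLC11A2, ACO1 or IREB2, which says only that this strict pattern is not in their annotated transcripts.

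The libraries held between 27572740 and 36272180 counts. U2 stood apart from the rest: its log2 CPM (the count scaled to a common library total) had a Pearson correlation across the tested genes of 0.883 to 0.887 with the other libraries, against 0.975 to 0.988 among U1, D1 and D2. The summed CPM of 89 replication-dependent histone genes was 3310 in U2 and between 459 and 565 in the others. Among the 14558 tested genes with an annotated exon length (83.3%), the median log2 ratio of U2 to U1 (TMM-scaled) was 0.39 for genes of up to 1000 bp of exon and -0.78 for genes of over 8000 bp, while the same medians for D2 over D1 were -0.13 and 0.09. Results that rest on U2 are therefore given with and without it. The label of the line was also checked. Of 15 hepatocyte genes, 0 reached a CPM of 1 in all libraries, 4 (ALB, APOH, TTR and SERPINA1) had at most 3 counts in any library, and the summed CPM of the 15 was 1.35 in U1, 5.89 in U2, 17.1 in D1 and 20.1 in D2. Most of the sums in D1 and D2 came from the fibrinogen chains FGG (335 and 386 counts, against at most 6 in U1 and U2) and FGB (106 and 70 counts, against at most 7). The messages of the secreted liver proteins ALB, APOH, TTR and SERPINA1 were thus at or near 0 in all 4 libraries. The hepatocyte genes therefore did not bear out the label HepG2, and which cells were sequenced was not settled here. Of 5 markers each, 2 of squamous epithelium (KRT17 and KRT14), 2 of simple epithelium (KRT8 and KRT18) and 4 of mesenchyme (VIM, COL1A1, COL3A1 and PDGFRB) reached a CPM of 1 in every library. KRT8 lay between 2088 and 4105 CPM and VIM between 717.5 and 1011 CPM, while KRT5, KRT6A, TP63, KRT19, EPCAM and CDH1 were at most 0.727 CPM and COL1A2 at most 0.0693 CPM. Leukocyte and erythroid markers summed to at most 1.90 CPM. The part of cell identity in the iron genes was not tested.

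FTH1 (chromosome 11, 61959718 to 61967634, GRCh38), whose product oxidizes iron as it enters the ferritin shell, was counted at 2512 CPM in U1 and 3828 CPM in U2, against 5966 CPM in D1 and 6106 CPM in D2. The groups did not overlap, and the doxorubicin libraries differed from each other by less than the untreated ones did (SD 99.1 and 930.4 CPM, n = 2 each). Its rank among all genes by count moved from 24 in U1 and 11 in U2 to 4 in both D1 and D2. Both doxorubicin libraries lay above both untreated libraries in 30.3% of all tested genes and below both in 11.5%, which is the background for the 1 member above and the 0 members below.

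The edgeR quasi-likelihood test over all genes gave FTH1 a log2 fold change of 0.77 (SE 0.30, 95% interval 0.03 to 1.51), doxorubicin over untreated, with an unadjusted p-value of 0.0432 and a Benjamini-Hochberg adjusted p-value of 0.773. FTH1 thus did not pass the thresholds of the study's methods, which ask for an adjusted p under 0.05 together with a change of 1 or more, up or down, on the log2 scale. Neither did any other member, and 0% of all tested genes were called by this test, against 90 genes (0 of them members) by DESeq2. In simulated counts at the dispersions estimated here, the edgeR test called 0 of 200 genes given a log2 change of 2. A lack of calls therefore does not show that a member was unchanged. Over 10 alternatives with all libraries, the unadjusted p of FTH1 lay between 0.00133 and 0.140. At an unadjusted p under 0.05 there were 768 genes, of which FTH1 was the 1 member, and 2.66% of all genes were up and 1.73% were down.

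Without U2, FTH1 rose by 1.13 on the log2 scale (SE 0.23, 95% interval 0.67 to 1.58, adjusted p = 9.71e-05, edgeR with Benjamini-Hochberg adjustment). In that fit U1 stands alone and is assumed to vary like the doxorubicin pair. FTH1 was the 1 member called in it, where 4.42% of all genes were called up and 0.566% down. Without U1 its log2 fold change was 0.47 (adjusted p = 0.0777). The fold in CPM was 2.38 for D1 and 2.43 for D2 against U1, and 1.56 for D1 and 1.60 for D2 against U2.

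**Figure D1:**
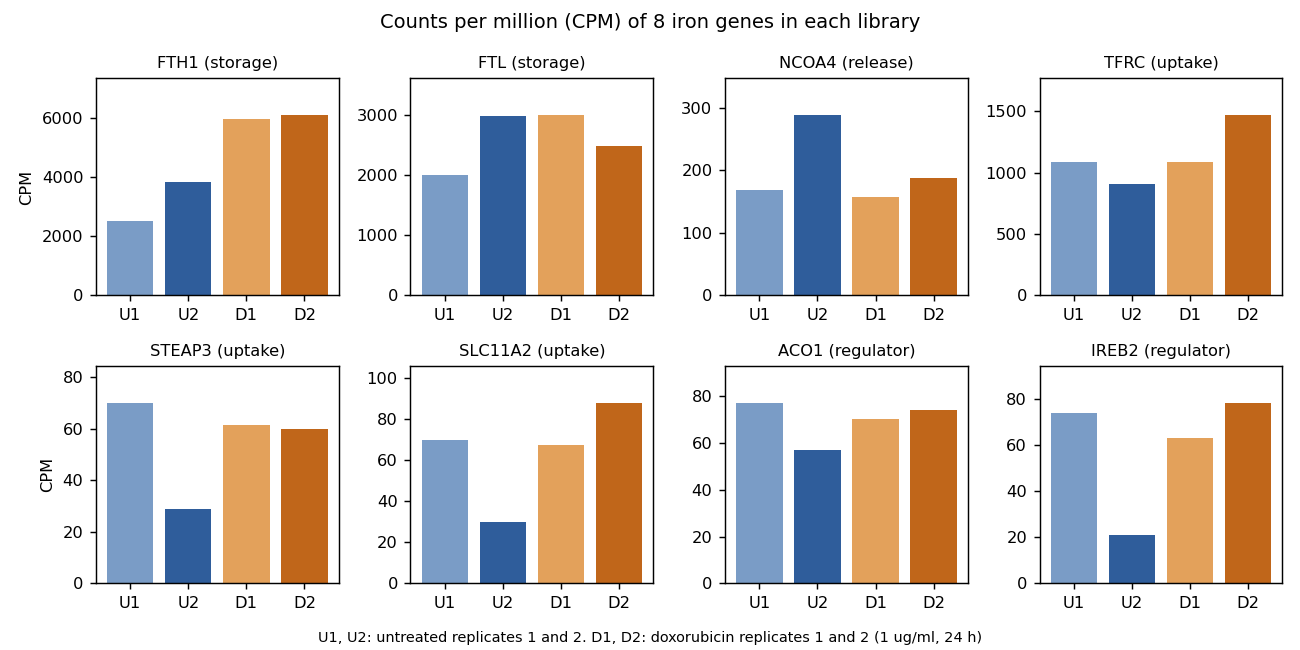
CPM (counts scaled to a common library total) of the 8 genes in each library, 1 bar a library and 1 panel a gene, with its own axis from 0. FTH1 is higher in D1 and D2 (5966 and 6106) than in U1 and U2 (2512 and 3828), and U2 is the lowest bar for TFRC, STEAP3, SLC11A2, ACO1 and IREB2.

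FTL (chromosome 19, 48965309 to 48966879), the light chain, which helps the iron core form, overlapped between the groups. It was counted at 1995 CPM in U1, 2972 CPM in U2, 3004 CPM in D1 and 2480 CPM in D2, so that D2 lay between the untreated libraries. Its log2 fold change was -0.01 (SE 0.31, 95% interval -0.79 to 0.77), and 0.32 (95% interval -0.11 to 0.75) without U2. Both ferritin chains, the members with the shortest exons (1591 bp and 871 bp), were higher in U2 than in U1, by 0.60 (FTH1) and 0.57 (FTL) on the TMM-scaled log2 scale. Summed, FTH1 and FTL took 0.451% of all counts in U1, 0.680% in U2, 0.897% in D1 and 0.859% in D2.

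The ratio of the 2 chains within a library needs no scaling between libraries. There were 1.26 FTH1 counts for each FTL count in U1, 1.29 in U2, 1.99 in D1 and 2.46 in D2. The doxorubicin libraries thus held relatively more heavy chain message, and the gap between the groups (means of 1.27 ± 0.02 and 2.22 ± 0.34, SD, n = 2 each) exceeded the spread within either. Of single tested genes, 41.8% did not overlap between the groups by CPM, and the share among ratios of genes was not tested. Per kilobase of exon, the ratio was 0.689 and 0.705 in U1 and U2 and 1.09 and 1.35 in D1 and D2. The lengths used, 1591 bp for FTH1 and 871 bp for FTL, join the exons of all basic transcripts of a gene. The length of the expressed messages was not measured. Which chain was the more abundant in a library is therefore not settled by these values. The ratios are given without a test. With 2 libraries a group, an exact two-sided permutation test cannot go below p = 0.333. On the log2 scale the ratio differed by 0.80 between the groups, and by 0.81 without U2.

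Ferritin genes have many processed copies, and reads of the copies and their parent can be confused. Of 25 FTH1 pseudogenes in the counts 17 had a count, as had 5 of 16 FTL pseudogenes. Those of FTH1 summed to 23.0 CPM in U1, 24.9 in U2, 29.8 in D1 and 38.4 in D2, which is between 0.500% and 0.915% of FTH1 itself, and FTL pseudogenes came to at most 0.147% of FTL. The leading copies were FTH1P8 (mean 9.15 CPM), FTH1P2 (7.67 CPM) and FTH1P7 (6.71 CPM). With the pseudogene counts added, the ratio of FTH1 to FTL was 1.27, 1.29, 1.99 and 2.48 in U1, U2, D1 and D2. How reads that fit several copies were treated is not given in the sources used here, so the absolute level of FTH1 is uncertain. FTH1 also shares 916 bp of exon with BEST1 on the other strand, which had 2.04, 1.97, 4.93 and 5.22 CPM in the same order, and its part in FTH1 was not tested.

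NCOA4 (chromosome 10, 46005088 to 46030623), the receptor that carries ferritin to the lysosome, was counted at 168 CPM in U1, 289 CPM in U2, 158 CPM in D1 and 187 CPM in D2. U2 was the highest of the 4 libraries, as it was in 36.6% of all genes, and the other 3 lay close together. On the TMM-scaled log2 scale NCOA4 was 0.77 higher in U2 than in U1, more than any other member, at 3988 bp of exon, where the median of all genes of 2000 to 4000 bp was 0.07. The log2 fold change was -0.56 (95% interval -1.48 to 0.35, adjusted p = 0.773, edgeR with Benjamini-Hochberg adjustment), and -0.10 (95% interval -0.54 to 0.33) without U2. Set against the message of its cargo, there were 0.0670 NCOA4 counts per FTH1 count in U1 and 0.0755 in U2, but 0.0265 in D1 and 0.0307 in D2. This ratio, like that of the chains, did not overlap between the groups, and it differed by -1.32 on the log2 scale, or by -1.23 without U2. Both ratios contain FTH1, whose own CPM did not overlap, whereas the CPM of NCOA4 and of FTL did. How many other genes would separate the groups in a ratio to FTH1 was not tested.

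**Figure D2:**
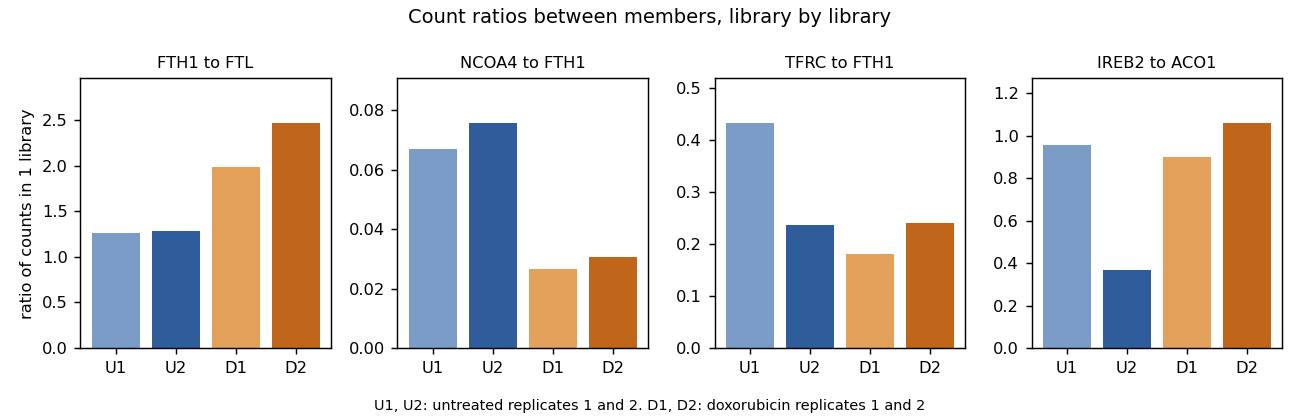
Ratios of counts between members within each library (bars from 0, no unit). FTH1 to FTL is 1.26 and 1.29 in U1 and U2 against 1.99 and 2.46 in D1 and D2, and NCOA4 to FTH1 separates the groups the other way, while IREB2 to ACO1 is low in U2 alone.

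TFRC (chromosome 3, 196012511 to 196082153), the receptor that brings transferrin-bound iron into the cell, was the most abundant uptake gene. It was counted at 1087 CPM in U1, 910 CPM in U2, 1087 CPM in D1 and 1472 CPM in D2. D1 matched U1, and only D2 lay above the other 3 libraries. Its log2 fold change was 0.19 (SE 0.28, 95% interval -0.50 to 0.89), and 0.09 (95% interval -0.33 to 0.52) without U2. The ratio of TFRC to FTH1 was 0.433 in U1, 0.238 in U2, 0.182 in D1 and 0.241 in D2, so that U2 fell between the doxorubicin libraries.

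STEAP3 (chromosome 2, 119223831 to 119265652), the reductase that reduces iron in the endosome and a gene known as a p53 target, was counted at 70.2 CPM in U1, 28.9 CPM in U2, 61.3 CPM in D1 and 60.0 CPM in D2. Both doxorubicin libraries lay below U1 and above U2. Its log2 fold change was 0.13 (95% interval -1.11 to 1.37) with all libraries, -0.35 (95% interval -0.81 to 0.11) without U2 and 0.89 (95% interval 0.39 to 1.38) without U1, so the choice of the untreated library set its sign. STEAP3-AS1, which shares 500 bp of exon on the other strand, had at most 0.262 CPM.

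SLC11A2 (chromosome 12, 50979401 to 51028566) encodes the transporter DMT1, which moves iron out of the endosome. It was counted at 69.6 CPM in U1, 29.9 CPM in U2, 67.2 CPM in D1 and 87.9 CPM in D2, and U1 lay between the doxorubicin libraries. The log2 fold change was 0.48 (95% interval -0.74 to 1.69), and 0.01 (95% interval -0.44 to 0.47) without U2.

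ACO1 (chromosome 9, 32384603 to 32454769), whose product is an aconitase when it carries an iron-sulfur cluster and binds RNA when it does not, was counted at 77.3 CPM in U1, 57.2 CPM in U2, 70.3 CPM in D1 and 74.2 CPM in D2. It had a log2 fold change of -0.06 (95% interval -0.90 to 0.79), and of -0.24 (95% interval -0.69 to 0.22) without U2. IREB2 (chromosome 15, 78437431 to 78501453), whose product is removed by the proteasome when iron is plentiful, was counted at 73.9 CPM in U1, 21.1 CPM in U2, 63.0 CPM in D1 and 78.5 CPM in D2. Its log2 fold change was 0.41 (95% interval -1.13 to 1.95), and -0.21 (95% interval -0.66 to 0.25) without U2. The ratio of IREB2 to ACO1 was 0.956 in U1, 0.897 in D1 and 1.06 in D2, but 0.369 in U2.

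U2 was thus the lowest library for 5 of the 8 members, all 3 uptake genes and both sensors, against 45% of all tested genes. The difference of U2 from U1 on the TMM-scaled log2 scale was -1.81 for IREB2, -1.29 for STEAP3, -1.22 for SLC11A2, -0.44 for ACO1 and -0.26 for TFRC. These 5 members have the longest exons of the 8, from 4562 bp in STEAP3 to 9471 bp in IREB2. The median of all tested genes of 4000 to 8000 bp was -0.39, and that of genes over 8000 bp, where IREB2 falls, was -0.78. Without U1, IREB2 (1.56, adjusted p = 1.90e-08) and SLC11A2 (1.19, adjusted p = 1.13e-05) were called up by edgeR with Benjamini-Hochberg adjustment, in a fit that called 21.4% of all genes up and 19.6% down. The part of exon length in these values was not tested further. Against U1 alone, both doxorubicin libraries were higher for FTH1 and FTL and lower for STEAP3 and ACO1, while 53.1% of all genes were higher and 24.7% were lower.

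**Figure D3:**
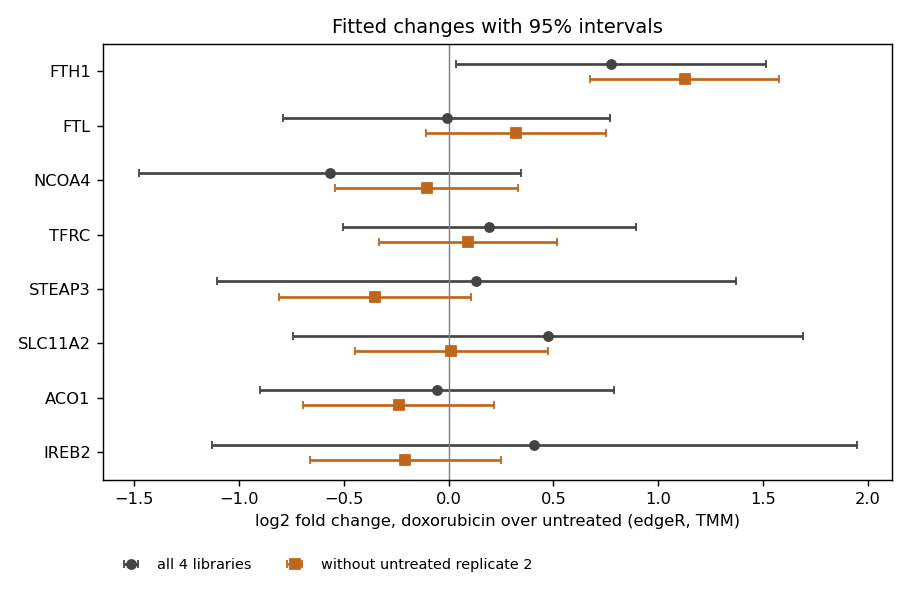
Fitted log2 fold change, doxorubicin over untreated, of each member with its 95% interval, from all 4 libraries (circles) and without U2 (squares). The intervals of FTH1 lie above 0 in both fits (0.03 to 1.51 and 0.67 to 1.58), and those of the other 7 members include 0 in both.

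The median log2 fold change of the 8 members was 0.16, with 5 above 0, beside a median of 0.01 over all tested genes, of which 8873 of 17479 were above 0. Without U2 the median of the members was -0.05, with 4 above 0, beside 0.05 over all genes. Library size alone, in place of TMM factors, moved the median of all genes to 0.17 and the value of FTH1 to 0.93. The smallest count of any member was 610 (IREB2 in U2), which carries a counting error of 4.05%, so depth did not limit these comparisons. In a culture measured in bulk, a change in the number of cells that express a gene and a change in message per cell cannot be told apart.

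Per kilobase of exon, the levels of the members fell into tiers. FTL was between 2291 and 3448 CPM per kb and FTH1 between 1579 and 3838 CPM per kb, and their ranges overlapped. TFRC followed at 140 to 227 CPM per kb and NCOA4 at 39.6 to 72.5 CPM per kb, each apart from its neighbours. STEAP3 (6.34 to 15.4 CPM per kb), SLC11A2 (4.41 to 13.0), ACO1 (7.57 to 10.2) and IREB2 (2.23 to 8.29) overlapped with each other over the 4 libraries.

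Over the 4 libraries, the genes closest to FTH1 by Euclidean distance between centred log2 CPM profiles were MATN1-AS1 (0.04), ADGRF4 (0.05) and AL645608.8 (0.07), all 3 counted at under 3 CPM. Those closest to TFRC were ZNF431 (0.03), NALCN (0.04) and AP003900.1 (0.04). Within a distance of 0.25 there were 64 genes around FTH1 and 462 around TFRC. The profiles were centred but not scaled for how much a gene varied, so these counts do not show which pattern was the more common.

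The wider iron pathway was followed through 68 other genes, of which 55 were tested. None was called (0 up and 0 down) by edgeR with all libraries, where 768 of all genes had an unadjusted p under 0.05, and 4 of the 55 genes had an unadjusted p under 0.05, all upward. Their median log2 fold change was 0.16, with 32 above 0. Both doxorubicin libraries lay above both untreated libraries in 23 of the 55 (30.3% of all genes did so) and below them in 3.

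The 4 genes were 3 importers and a heme enzyme. LRP1, a receptor that takes up heme bound to hemopexin among many ligands, was counted at 124 CPM in U1, 60.4 CPM in U2, 276 CPM in D1 and 226 CPM in D2, a log2 fold change of 1.29 (SE 0.44, unadjusted p = 0.0292 and adjusted p = 0.773, edgeR). SCARA5, a receptor for ferritin, was counted at 3.14, 2.77, 8.42 and 7.91 CPM in the same order, a log2 fold change of 1.31 (SE 0.49). These receptors were higher in both doxorubicin libraries. LCN2, a protein that binds siderophores, was counted at 0.0827 CPM in U1 (3 counts), 0.242 CPM in U2, 1.60 CPM in D1 and 1.09 CPM in D2, a log2 fold change of 2.95 (SE 0.78) that rests on at most 55 counts in a library. HMOX1, the oxygenase that frees iron from heme, was counted at 20.5 CPM in U1, 34.3 CPM in U2, 63.6 CPM in D1 and 61.6 CPM in D2, a log2 fold change of 1.04 (SE 0.40). FTH1 shared with HMOX1 the order of the groups and the higher level in U2 than in U1. Without U2, HMOX1 (1.47), SCARA5 (1.24) and LCN2, the last against 3 counts in U1, were called up and FLVCR2, a heme carrier, was called down (-1.08), while LRP1 (0.88, adjusted p = 0.00546) stayed under the fold threshold. UROD, an enzyme of heme synthesis, had the lowest value among list genes with a mean CPM of at least 5, -1.37 (SE 0.65, not past the threshold), and it rested on U2, where it was counted at 415 CPM against 106 to 117 CPM elsewhere. Without U2 its value was -0.06.

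**Figure D4:**
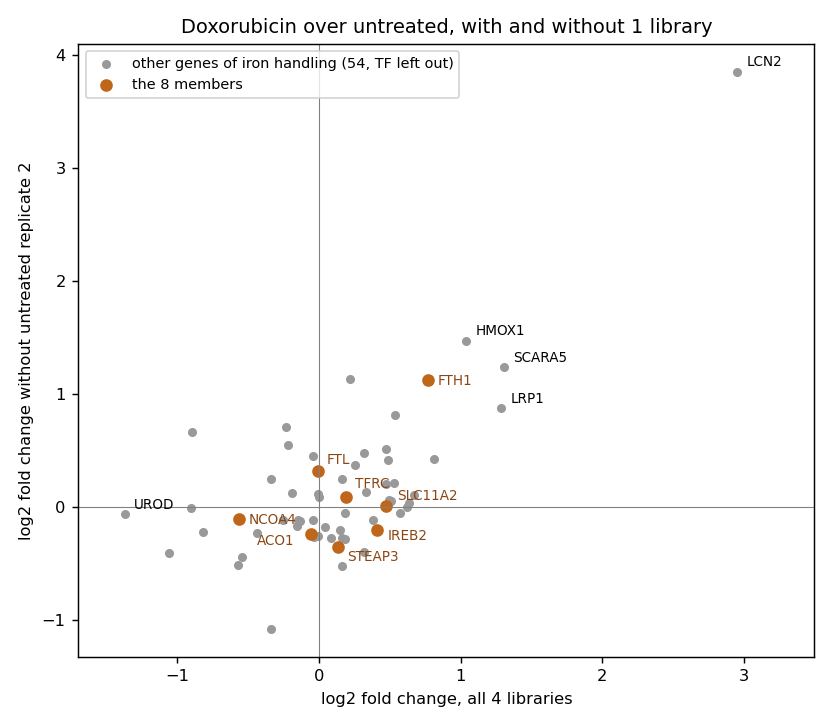
Log2 fold change of the 8 members (orange) and of 54 other tested genes of iron handling (grey, TF, with 0 counts in U1, left out) with all 4 libraries on the x axis and without U2 on the y axis. FTH1 (0.77 and 1.13) lies above 0 on both axes near HMOX1, SCARA5 and LRP1, LCN2 is the point farthest to the upper right (2.95 and 3.85, on 3 counts in U1), and the other 7 members lie between -0.35 and 0.32 on the y axis.

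Genes of iron export were at or near the floor of detection. SLC40A1, the sole known iron exporter of cells, had at most 3 counts in any library, and so did CP, an oxidase that works with it. HEPH and HEPHL1, related oxidases, had at most 7 and 11 counts, and HEPHL1 was counted at 0.110 CPM in U1, 0.208 CPM in U2, 0.233 CPM in D1 and 0.399 CPM in D2. HAMP, the hormone that closes the exporter, had at most 2. A level of 3 counts corresponds to 0.083 to 0.109 CPM in these libraries, so SLC40A1 and CP stayed at or under it, HEPH passed it in U2 alone, and none of these genes passed the filter for testing. HMOX2 had at most 4 counts and BOLA2, which has a near-identical copy, had 0. Whether the counting lowered these 2 genes was not tested. FBXL5, which marks the IREB2 product for removal, was counted at 38.2 CPM in U1, 10.3 CPM in U2, 38.1 CPM in D1 and 43.0 CPM in D2, low in U2 as IREB2 itself was.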

How the data were processed

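RNA-seq counts of 4 libraries, 2 untreated and 2 treated with doxorubicin, were used. Reads were trimmed with Cutadapt after FastQC, HISAT2 placed them on hg38 and the authors deposited whole-number counts per gene, without normalization. The methods and the submitters' processing notes name HTSeq for counting, and the header names the basic GENCODE release 31. Versions and the use of strand are not given in the sources used here. Positions, exon lengths and transcript sequences came from GENCODE release 44.

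All genes entered 1 quasi-likelihood fit by edgeR 4.0.16 under R 4.3.3, after filterByExpr and TMM scaling, with a prior count of 0.125. Alternatives were DESeq2 1.42.0, other edgeR tests, scalings and filters, a replicate block and leaving out each library. CPM used the column total, while the correlations and profile distances used TMM-scaled log2 CPM. Python 3.11.15 with pandas 2.3.3 and NumPy 2.4.6 did the rest. The members and lists were chosen with earlier results of these data known. All 8 members were named, and of the pathway list the genes with an unadjusted p under 0.05 and the 3 largest changes with a mean CPM of at least 5. FBXL5, FLVCR2 and the genes near the floor were named after their values were seen.

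The fit was tested on simulated counts of 17479 genes for this comparison, 200 of which carried a log2 change of 2. At dispersions estimated here none of the 200 was called, though 198 took the right sign. At a dispersion of 0.01, 194 were called. The depth was 27572740 to 36272180 counts per library, and floors cover counting error only. A comparison of proteins was not made.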

Additional observations from a re-analysis of the deposited data

How the results depend on the processing

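The call on FTH1 depended on the untreated library used. With all 4 libraries, its log2 fold change was between 0.69 and 0.93 over 10 alternatives, with unadjusted p-values from 0.00133 to 0.140 and adjusted p-values from 0.727 to 0.843. The edgeR quasi-likelihood test called 0 of all genes (768 at an unadjusted p under 0.05). The paper reports differentially expressed mRNAs from edgeR at the same thresholds and does not name the edgeR test, so its procedure was not reproduced here. DESeq2 called 90, edgeR's likelihood ratio test 64 and its exact test 46, with 0 members and 0 list genes among them, and the other scalings and filters called 0. The replicate block called 20 genes and no member, with a correlation of 0.0219 between deviations of same-numbered libraries. The labels do not say that the numbers mark a shared culture or day. Leaving out each library in turn gave 0 to 7173 calls (7173 without U1 and 871 without U2), 0 to 2 of them members (SLC11A2 and IREB2 without U1, FTH1 without U2) and 0 to 21 list genes (4 without U2). The sign of FTL, near 0, turned with library size alone (0.14), no filter (0.072) and the replicate block (0.0072), and that of ACO1 with library size alone (0.10). With a library left out, FTL was between -0.30 and 0.32, STEAP3 between -0.35 and 0.89, ACO1 between -0.24 and 0.15 and IREB2 between -0.21 and 1.56. The count of 1 member without overlap (41.8% of all genes) became 2 on TMM-scaled CPM (39.3%), where NCOA4 was lower in both doxorubicin libraries. With a library left out it was 3 to 7, namely 7 without U1 (91.1% of all genes), 4 without U2 (77.8%), 4 without D1 (60.2%) and 3 without D2 (54.5%), all but that without U2 added after seeing the data. The ratios of FTH1 to FTL and of TFRC to FTH1 kept their sign with the pseudogene counts added, which are few beside those of the parents. With a library left out, the log2 difference of FTH1 to FTL was between 0.64 and 0.95. It was between -1.43 and -1.21 for NCOA4 to FTH1 and between -1.05 and -0.18 for TFRC to FTH1. For IREB2 to ACO1 it was between 0.03 and 1.40. That of TFRC to FTL changed sign, from -0.23 without U2 to 0.60 without U1. The causes were not tested beyond this.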

Other observations

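Among genes of the hepcidin axis, chosen for mention after their values were seen, BMP2 and BMP6, ligands that induce hepcidin in liver, were abundant although hepcidin itself was at the floor. BMP2 was counted at 268 CPM in U1, 91.2 CPM in U2, 326 CPM in D1 and 312 CPM in D2. BMP6 was counted at 94.5, 49.1, 157 and 123 CPM in the same order. Both stood higher in the doxorubicin libraries than in both untreated ones, as did 30.3% of all tested genes. Their log2 fold changes were 0.67 (SE 0.54) and 0.81 (SE 0.43), and neither had an unadjusted p under 0.05 in edgeR. Without U2 the values were 0.11 and 0.43.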
